A study of Homo sapiens with 9 samples.

Results

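Interferon genes and interferon receptor genes were followed in RNA-seq libraries of A549, an established line of human lung adenocarcinoma cells. The members were chosen by name, as the interferon genes IFNB1, IFNL1, IFNL2, IFNL3 and IFNE and the receptor genes IFNAR1, IFNAR2, IFNGR1, IFNGR2 and IFNLR1, which makes 10 of the 58735 genes in the count table. All cells had been transfected with a plasmid by means of jetPRIME and grown in RPMI medium with fetal bovine serum. The control group had received the PC3 plasmid, the LINC00996 group a plasmid that expresses the long non-coding RNA LINC00996 (called L996 in the labels), and the AP001189.3 group a plasmid that expresses the long non-coding RNA AP001189.3 (called RP11 in the labels). There were 3 libraries per group, and no untransfected library was analysed here. Because nothing in the labels says that the libraries came from separate cultures, p-values measure only the spread between these libraries.

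Interferons are secreted cytokines by which a cell that has sensed viral or misplaced nucleic acid alerts its neighbours. IFNB1 and IFNE encode type I interferons, which bind the receptor made of IFNAR1 and IFNAR2. IFNL1, IFNL2 and IFNL3 encode type III interferons, which bind IFNLR1 together with IL10RB and act mainly on epithelial cells such as those lining the airway. IFNGR1 and IFNGR2 form the receptor of interferon gamma, the type II interferon, which is made chiefly by T cells and natural killer cells. Type I and type III receptors signal through the kinases JAK1 and TYK2, while the interferon gamma receptor uses JAK1 and JAK2. IFNB1 and the IFNL genes are switched on by transcription factors of the IRF and NF-kB families after nucleic acid sensing, whereas IFNE is known for constitutive expression in epithelia.

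The sequences just upstream of the 5 interferon genes are shown because IFNE behaved unlike the others. They are the 250 bases before the transcription start from RefSeq on GRCh38.p14, and an entry was found for 9 of the 10 members, with IFNAR2 not matched. Capitals mark matches, on either strand, to an IRF element (AANNGAAA) or an NF-kB element (GGGANNTTC), both picked after the sequences had been read. IFNB1 is at chr9:21077943-21078192 (minus strand), IFNL1 at chr19:39296157-39296406 (plus), IFNL2 at chr19:39268146-39268395 (plus), IFNL3 at chr19:39245251-39245500 (minus) and IFNE at chr9:21482314-21482563 (minus).

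IFNB1: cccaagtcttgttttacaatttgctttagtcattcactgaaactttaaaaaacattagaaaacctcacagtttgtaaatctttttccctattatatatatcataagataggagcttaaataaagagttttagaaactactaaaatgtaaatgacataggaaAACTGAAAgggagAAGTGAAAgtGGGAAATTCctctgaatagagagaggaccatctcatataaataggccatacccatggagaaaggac
IFNL1: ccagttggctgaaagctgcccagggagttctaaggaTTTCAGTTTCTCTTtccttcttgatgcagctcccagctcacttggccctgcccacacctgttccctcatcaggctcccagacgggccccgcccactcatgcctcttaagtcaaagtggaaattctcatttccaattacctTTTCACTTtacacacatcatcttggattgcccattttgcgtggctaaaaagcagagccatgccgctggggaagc
IFNL2: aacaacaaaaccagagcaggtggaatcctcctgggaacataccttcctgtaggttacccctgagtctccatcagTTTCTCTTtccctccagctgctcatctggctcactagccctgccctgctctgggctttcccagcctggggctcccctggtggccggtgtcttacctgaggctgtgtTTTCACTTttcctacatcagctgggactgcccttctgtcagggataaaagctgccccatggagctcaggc
IFNL3: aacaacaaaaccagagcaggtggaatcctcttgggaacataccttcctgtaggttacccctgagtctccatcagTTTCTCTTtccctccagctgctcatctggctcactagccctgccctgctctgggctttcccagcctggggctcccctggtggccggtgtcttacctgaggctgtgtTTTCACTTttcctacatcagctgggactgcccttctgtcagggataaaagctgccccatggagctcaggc
IFNE: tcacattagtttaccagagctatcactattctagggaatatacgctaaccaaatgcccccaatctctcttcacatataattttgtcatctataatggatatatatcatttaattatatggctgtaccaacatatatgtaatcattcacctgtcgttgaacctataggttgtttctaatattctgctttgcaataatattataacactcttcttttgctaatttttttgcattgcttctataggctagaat

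The IFNB1 window held 2 IRF elements and 1 NF-kB element, the latter starting 66 bases before the RefSeq start. IFNL1 held 3 IRF elements, of which 2 overlap, and IFNL2 and IFNL3 held 2 each. IFNE had neither element in its window. Among the receptor genes with a window, IFNGR2 and IFNLR1 held 1 NF-kB element each, and IFNAR1 and IFNGR1 held no match. RefSeq gives IFNL3 a further window, at chr19:39245007-39245256, which held no match. Of 35116 windows of the same length in the genome, 20.3% held an IRF element, 3.52% an NF-kB element and 0.720% both. These matches are a description of letters and not evidence of binding.

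IFNL2 and IFNL3 are close copies of each other. Their windows differed at 1 of 250 bases, and their transcripts were identical at 719 of 734 aligned bases (98.0%). None of the 588 stretches of 150 bases in the IFNL2 transcript occurred unchanged in IFNL3, so a full-length read differs between them at 1 or more bases. Each copy was therefore tested alone and also as the sum of both. IFNL1 was more distant, with 72.6% identity to IFNL2 and 71.9% to IFNL3.

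Counts summed to between 15272450 and 18125447 per library. LINC00996 RNA had 4373 to 5952 counts in its own group and 4 to 9 elsewhere, and AP001189.3 RNA had 1660 to 2378 in its own group and 0 to 2 elsewhere, so the libraries matched their labels. LINC00996 replicate 1 stood apart, with a chi-square per gene of 22.4 and 33.3 against the other libraries of its group, while all other pairs within a group lay between 2.27 and 7.32. The 6 epithelial markers summed to 8435 to 8524 CPM (counts relative to library size, scaled by TMM) in control, 8352 to 11145 in LINC00996 and 9100 to 9286 in AP001189.3. Of these 6, 2 were lower and 0 higher with LINC00996 than in control (median 0.03), CDH1 (-0.89, edgeR adjusted p = 2.92e-05) and KRT19 (-0.40, adjusted p = 0.0256, and 0.0599 to 0.115 in the 5 fits without a control library, LINC00996 replicate 2 or LINC00996 replicate 3), while KRT8 had 0.30 (adjusted p = 0.0958) and EPCAM 0.28 (adjusted p = 0.135). KRT8 passed the threshold without LINC00996 replicate 3 (0.0254) and with all 9 libraries in 1 fit (0.0413), and EPCAM without LINC00996 replicate 1 (0.0448). With AP001189.3, 1 of the 6 was higher, KRT8 (0.19, adjusted p = 0.00259, and 0.317 with all 9 libraries in 1 fit), and 0 were lower. CDH1 was called lower with AP001189.3 only without AP001189.3 replicate 1 (-0.16, adjusted p = 0.0303). The 8 leukocyte markers summed to 8.06 to 15.3 CPM in all libraries, with CLEC4C, LILRA4 and MS4A1 at 0 throughout. The 7 fibroblast and endothelial markers summed to 32.8 to 35.2 CPM in control, 18.6 to 20.4 in LINC00996 and 27.4 to 29.1 in AP001189.3. Of the 3 tested, 2 were lower with LINC00996, PECAM1 (-1.42, adjusted p = 2.84e-04) and COL1A1 (-0.62, adjusted p = 0.00635). With AP001189.3, 1 was lower, PECAM1 (-0.80, adjusted p = 7.03e-04), and 0 were higher in either. The part of these markers in the results was not tested.

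Levels were compared between members per gene length, as the FPKM deposited by the authors. IFNGR1 was the highest member in control cells, at 147.9 ± 2.53 FPKM (SD, n = 3), followed by IFNGR2 at 41.3 ± 2.46 and IFNAR1 at 16.2 ± 0.920, and the values of these 3 receptors did not overlap. IFNL1 at 9.62 ± 1.25, IFNL2 at 8.82 ± 1.64 and IFNL3 at 8.13 ± 1.08 came next and overlapped one another. IFNE lay below them at 2.44 ± 0.362. IFNLR1 at 1.49 ± 0.0732, IFNAR2 at 1.40 ± 0.388 and IFNB1 at 1.15 ± 0.614 came last, again with overlapping values. In the AP001189.3 group the IFNL genes moved up to 20.6 ± 6.45 (IFNL3), 21.2 ± 3.64 (IFNL1) and 23.5 ± 3.57 (IFNL2) FPKM, where IFNAR1 was 13.1 ± 0.340. In the LINC00996 group they lay at 2.23 ± 1.01 (IFNL1), 2.73 ± 0.241 (IFNL3) and 2.92 ± 0.620 (IFNL2), in the range of IFNE at 2.42 ± 0.306.

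**Figure D1:**
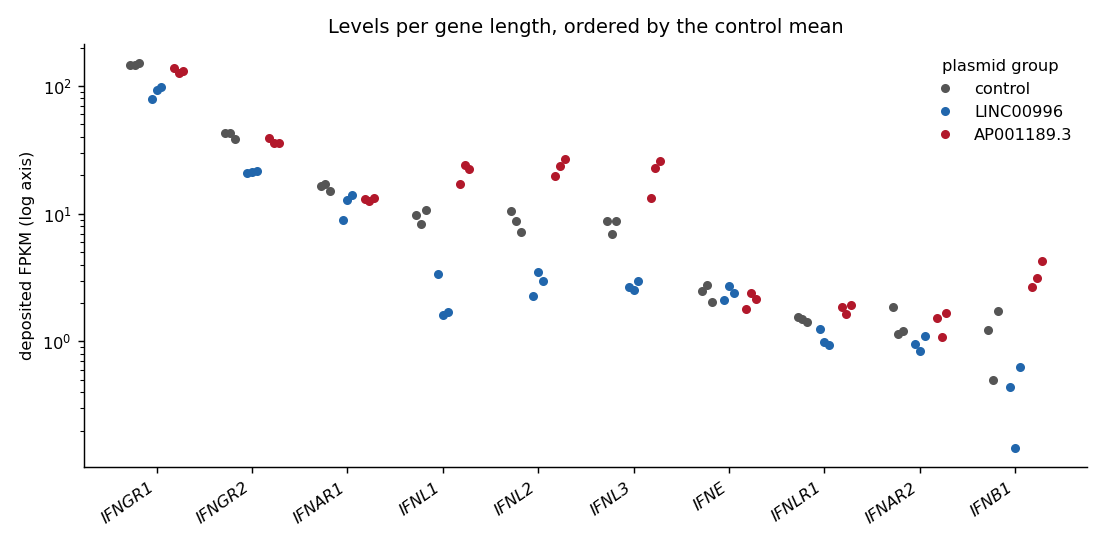
Deposited FPKM of the 10 members in each library on a log axis, ordered by the control mean, with 1 point per library and colours for the plasmid groups. IFNGR1 is highest in all 3 groups, and the IFNL genes range from 2.23 to 2.92 FPKM on average with LINC00996 to 20.6 to 23.5 with AP001189.3.

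IFNAR2 needs care, since 83.2% of its exon bases are shared with other genes. Of its 4614 exon bases, 2038 are also in AP000295.1 on the same strand and 1803 in the antisense IL10RB-DT, and the sources used here do not state whether strand was used in counting. IFNGR2 shares 12.8% of its exon bases with the antisense TMEM50B. The other 8 members share none.

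The IFNL genes moved in opposite directions under the plasmids. All of them were lower with LINC00996 than with the control plasmid and higher with AP001189.3. IFNB1 was scarce, and its highest counts were those of the AP001189.3 libraries. IFNE was not called in any comparison. Counts are given for control, LINC00996 and AP001189.3 libraries in the order of replicates 1, 2 and 3.

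IFNL1, on chromosome 19 at 39296325 to 39298673 (GRCh38), had 144, 115 and 162 counts in control, 54, 22 and 27 with LINC00996, and 252, 321 and 319 with AP001189.3. This gave 8.31 ± 1.09, 1.94 ± 0.883 and 18.4 ± 3.11 CPM, with no overlap between any of the groups. The highest LINC00996 library was replicate 1, the one that stood apart. IFNL1 was 4.26-fold lower with LINC00996 than in control (log2 fold change -2.09, SE 0.27, edgeR quasi-likelihood adjusted p = 2.29e-04) and 2.20-fold higher with AP001189.3 (1.14, SE 0.13, adjusted p = 9.08e-07). Without LINC00996 replicate 1 the former value was -2.53.

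IFNL2, at 39268514 to 39270092 on the same chromosome, had 132, 105 and 93 counts in control, 31, 41 and 41 with LINC00996, and 250, 271 and 330 with AP001189.3. The means were 6.55 ± 1.21, 2.17 ± 0.453 and 17.5 ± 2.62 CPM, and again no group overlapped another. It was 3.02-fold lower with LINC00996 (-1.60, SE 0.23, adjusted p = 5.04e-04) and 2.67-fold higher with AP001189.3 (1.41, SE 0.14, adjusted p = 9.26e-08).

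Its near-copy IFNL3, at 39243553 to 39245129, showed the same order. Counts were 115, 86 and 119 in control, 38, 31 and 43 with LINC00996, and 176, 270 and 330 with AP001189.3, or 6.32 ± 0.839, 2.12 ± 0.184 and 16.0 ± 4.99 CPM. Replicate 1 was the lowest of the AP001189.3 libraries and still above every control library. The difference was 2.97-fold lower with LINC00996 (-1.57, SE 0.20, adjusted p = 2.49e-04) and 2.52-fold higher with AP001189.3 (1.33, SE 0.23, adjusted p = 0.00287).

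IFNB1, which encodes interferon beta and lies on chromosome 9 at 21077105 to 21077963, had low counts, above all with LINC00996. Its counts were 18, 7 and 26 in control, 7, 2 and 10 with LINC00996, and 39, 42 and 61 with AP001189.3. The AP001189.3 libraries were all above the rest, while control and LINC00996 overlapped. In CPM the means were 0.996 ± 0.533, 0.350 ± 0.209 and 2.91 ± 0.713. IFNB1 passed the filter on low counts only in the comparisons with AP001189.3, and only through the counts of that group, so no call of IFNB1 from the filtered fits is given. Fitted by edgeR without a filter, its log2 fold change was 1.52 for AP001189.3 against control (adjusted p = 4.16e-05) and -2.99 for LINC00996 against AP001189.3 (adjusted p = 1.47e-12). These were the smallest adjusted p over 13 alternatives, most of them filtered, and the largest were 0.0501 and 0.00345. For LINC00996 against control the fit without a filter gave -1.47 (adjusted p = 0.0446). IFNB1 entered 4 filtered fits with a library left out only through the control counts, so these are not read as tests. Their values were -1.10 to -1.91, with edgeR adjusted p of 0.0515 to 0.226.

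IFNE lies on the same chromosome at 21480839 to 21482313, within the span of the long non-coding RNA gene MIR31HG but sharing no exon base with it. It had 63, 66 and 53 counts in control, 58, 64 and 66 with LINC00996, and 45, 55 and 53 with AP001189.3. The groups overlapped, at 3.62 ± 0.535, 3.60 ± 0.443 and 3.15 ± 0.462 CPM. The 95% interval of its log2 fold change ran from -0.47 to 0.45 for LINC00996 against control (adjusted p = 0.981) and from -0.65 to 0.25 for AP001189.3 against control (adjusted p = 0.575), so changes within those bounds are not excluded. MIR31HG itself was higher in both plasmid groups than in control, by 0.97 (SE 0.26, adjusted p = 0.0172) and 0.70 (SE 0.23, adjusted p = 0.0291) on the log2 scale. The LINC00996 call was lost without control replicate 1 (adjusted p = 0.0614) or 3 (0.0794), and the AP001189.3 call without control replicate 3 (0.0958), AP001189.3 replicate 1 (0.0603) or AP001189.3 replicate 2 (0.189) and with all 9 libraries in 1 fit (0.132).

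**Figure D2:**
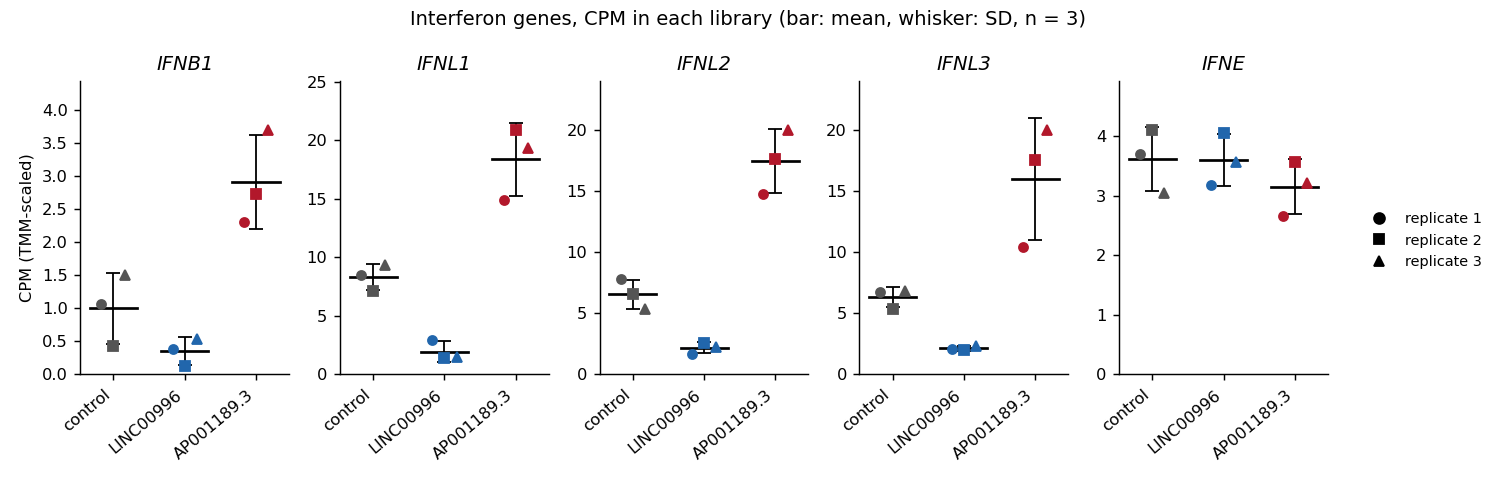
CPM of the 5 interferon genes in each library, 1 panel per gene with its own axis from 0; points are libraries, bars the mean and whiskers the SD of 3. The IFNL genes rank AP001189.3, control, LINC00996 with no overlap, and IFNE lies between 2.66 and 4.11 CPM in all 9 libraries.

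By the count of calls, 3 of the 4 interferon genes tested were lower with LINC00996 than in control and 0 were higher, where 11.6% of all 16097 genes tested were called lower and 10.7% higher. With AP001189.3, 3 of the 4 other than IFNB1 were higher and 0 lower, where 11.4% of 16023 genes were called higher and 8.49% lower. Median log2 fold changes of these 4 genes were -1.58 and 1.24, beside 0.01 and -0.0013 over all genes tested. These comparisons share the control libraries.

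LINC00996 was also set directly against AP001189.3, which leaves the control libraries out. In that comparison 12.1% of 16095 genes were called lower with LINC00996 and 9.38% higher, and 3 of the 4 interferon genes other than IFNB1 were lower. IFNL1 was 9.41-fold lower (-3.23, SE 0.25, adjusted p = 6.23e-06), IFNL2 8.09-fold (-3.02, SE 0.19, adjusted p = 1.92e-06), and IFNL3 7.50-fold (-2.91, SE 0.25, adjusted p = 1.25e-05). IFNE differed by 0.19, with a 95% interval of -0.27 to 0.64 and an adjusted p of 0.566.

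The other interferon genes of the table were scarce. Of 17 such genes, 9 had 0 counts in every library, among them IFNG, whose product is the ligand of IFNGR1 and IFNGR2. A count of 0 allows up to 3 counts per library. IFNL4, a further type III gene, had 2, 11 and 9 counts in control, 3, 4 and 2 with LINC00996, and 29, 20 and 21 with AP001189.3. All AP001189.3 libraries were above the rest, while control and LINC00996 overlapped. IFNL4 passed the filter only through the AP001189.3 counts, so its test is not given. IFNA1 had 1 to 8 counts per library in all groups.

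Among the receptor genes, both chains of the interferon gamma receptor were lower with LINC00996 than in control. IFNGR1, the ligand-binding chain, on chromosome 6 at 137197484 to 137219449, had 8222, 7760 and 8678 counts in control, 4772, 4837 and 5990 with LINC00996, and 7807, 6376 and 7128 with AP001189.3. In CPM this was 488 ± 9.17, 297 ± 32.4 and 436 ± 23.6. The LINC00996 libraries were all below the others, and the AP001189.3 libraries lay just under the control. IFNGR1 was 1.64-fold lower with LINC00996 (-0.72, SE 0.10, adjusted p = 3.17e-04) and 1.12-fold lower with AP001189.3 (-0.16, SE 0.05, adjusted p = 0.0197). The second of these calls was lost without control replicate 2 (adjusted p = 0.0689), AP001189.3 replicate 2 (0.168) or AP001189.3 replicate 3 (0.0890), and with all 9 libraries in 1 fit (0.291).

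IFNGR2, the chain that brings JAK2 to the complex, lies on chromosome 21 at 33402896 to 33479348. Counts were 2164, 2051 and 2001 in control, 1142, 990 and 1200 with LINC00996, and 1971, 1627 and 1758 with AP001189.3, or 123 ± 7.14, 63.4 ± 1.31 and 109.6 ± 5.94 CPM. The LINC00996 values were tightly grouped and far below the rest, and 1 AP001189.3 library overlapped the control. It was 1.95-fold lower with LINC00996 (-0.96, SE 0.09, adjusted p = 2.90e-05). With AP001189.3 it was lower by 1.13-fold (-0.17, SE 0.06, adjusted p = 0.0421), a call lost in DESeq2 (adjusted p = 0.0561), in the joint fit of 9 libraries (0.247), and without control replicate 1 (0.0923), control replicate 2 (0.192), AP001189.3 replicate 2 (0.194) or AP001189.3 replicate 3 (0.167). TMEM50B, which overlaps IFNGR2 on the other strand, had 338 to 454 counts per library and was not called in any comparison.

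IFNAR1, a chain of the type I receptor, on chromosome 21 at 33324477 to 33359862, had 1782, 1729 and 1680 counts in control, 1044, 1276 and 1638 with LINC00996, and 1416, 1238 and 1398 with AP001189.3. The LINC00996 libraries were the most scattered, at 57.1, 80.9 and 88.6 CPM against 103 ± 5.70 in control and 82.9 ± 2.19 with AP001189.3. Replicate 1 was the lowest of them. IFNAR1 was 1.36-fold lower with LINC00996 (-0.45, SE 0.14, adjusted p = 0.0406) and 1.24-fold lower with AP001189.3 (-0.31, SE 0.06, adjusted p = 4.46e-04). Without LINC00996 replicate 1 the LINC00996 value was -0.28 (adjusted p = 0.00308), which is over 1.5 times smaller, and the call was lost without any 1 of the control libraries (adjusted p = 0.134, 0.153 and 0.0966 for replicates 1, 2 and 3), without LINC00996 replicate 2 (0.0632) and when scaled by library size alone (0.0627). The AP001189.3 call was lost with all 9 libraries in 1 fit (0.167).

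IFNAR2, the partner chain, starts at 33229901 and ends at 33265675 on the same chromosome. Its counts were 146, 86 and 98 in control, 82, 62 and 94 with LINC00996, and 121, 78 and 128 with AP001189.3. The lowest control library stood just above the highest LINC00996 library, at 5.35 against 5.08 CPM. Neither difference from control was called, at -0.53 (SE 0.22, adjusted p = 0.0981) for LINC00996 and 0.03 (SE 0.19, adjusted p = 0.930) for AP001189.3, with 95% intervals of -1.002 to -0.06 and -0.36 to 0.42. Without control replicate 1, the library with 146 counts, the LINC00996 value was -0.29 (adjusted p = 0.403). The antisense IL10RB-DT had 61 to 69 counts in control, 13 to 59 with LINC00996 and 70 to 78 with AP001189.3, and how many of its reads were shared with IFNAR2 was not tested.

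IFNLR1, the chain that is particular to type III interferons, lies on chromosome 1 at 24154157 to 24187959. It had 131, 120 and 122 counts in control, 114, 77 and 86 with LINC00996, and 157, 125 and 157 with AP001189.3. In CPM the order was that of the IFNL genes, at 8.97 ± 0.741 with AP001189.3, 7.40 ± 0.349 in control and 5.26 ± 0.858 with LINC00996, with no overlap. The difference of LINC00996 from control was -0.49 (SE 0.17, adjusted p = 0.0590) and passed the threshold without LINC00996 replicate 1 (-0.63, adjusted p = 0.00813) and with all 9 libraries in 1 fit (adjusted p = 0.0273). For AP001189.3 it was 0.28 (SE 0.14, adjusted p = 0.164, 95% interval -0.0048 to 0.57).

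**Figure D3:**
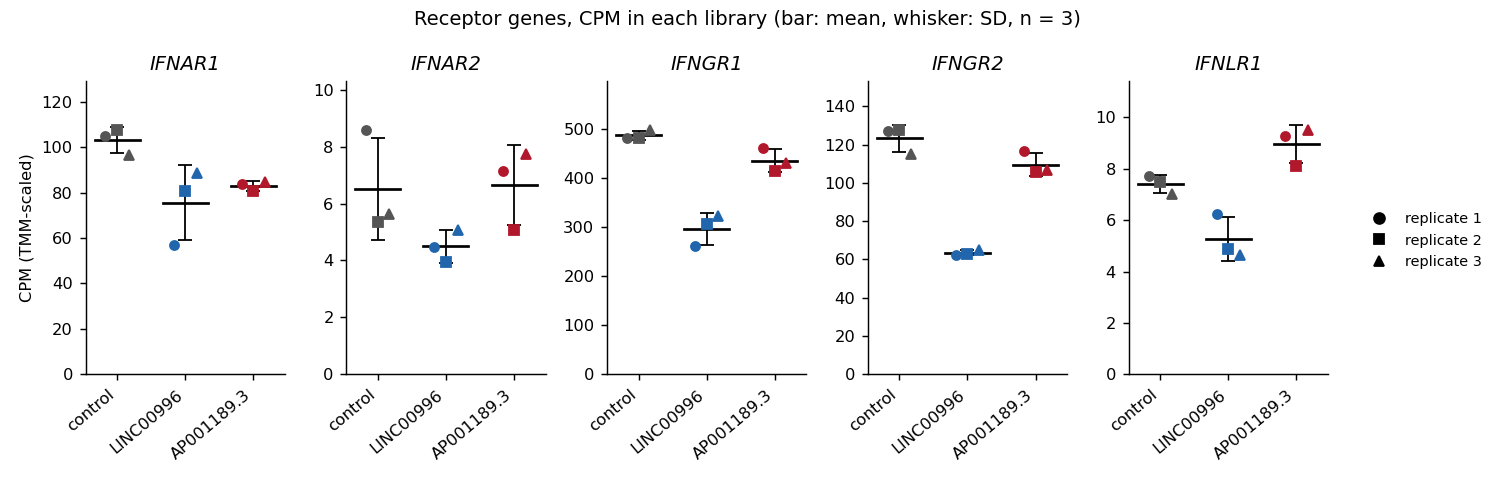
CPM of the 5 receptor genes in each library, drawn as for the interferon genes, with bars for the mean and whiskers for the SD of 3 libraries. IFNGR1 and IFNGR2 are lowest with LINC00996, at 297 and 63.4 CPM on average, and IFNLR1 follows the order AP001189.3, control, LINC00996.

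Thus 3 of the 5 receptor genes were lower with LINC00996 than in control, and 3 of 5 were lower with AP001189.3, with 0 higher in either. The shares over all genes were 11.6% lower and 10.7% higher with LINC00996, and 8.49% lower and 11.4% higher with AP001189.3. Over the 9 members other than IFNB1, 6 were lower with LINC00996, and with AP001189.3 3 were lower and 3 higher. Without LINC00996 replicate 1, IFNLR1 joined the lower members, while over all genes 5481 of 16508 were called in place of 3588 of 16097. When all 9 libraries shared 1 fit, 3 members were called in AP001189.3 against control, the IFNL genes, and the count over all genes was 435 in place of 3180.

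Set directly against AP001189.3, LINC00996 cells had less IFNGR2 (-0.79, SE 0.09, adjusted p = 8.95e-05), IFNGR1 (-0.56, SE 0.10, adjusted p = 0.00214) and IFNLR1 (-0.77, SE 0.16, adjusted p = 0.00609). IFNAR1 differed by -0.14, with a 95% interval of -0.45 to 0.17 (adjusted p = 0.535). IFNAR2 differed by -0.57, with an interval of -0.999 to -0.14 (adjusted p = 0.0607), and passed the threshold without LINC00996 replicate 1 (0.0248), without AP001189.3 replicate 2 (0.0388) and with no filter on low counts (0.0440).

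**Figure D4:**
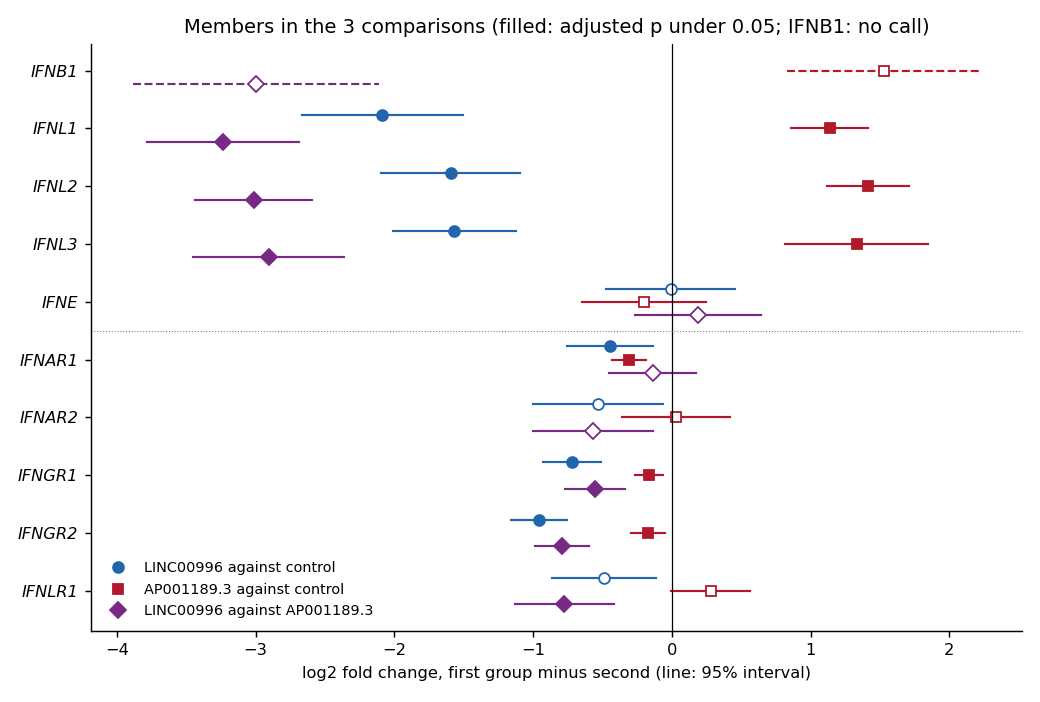
Log2 fold change of each member in the 3 comparisons, first group minus second, with 95% intervals from edgeR; filled symbols have an adjusted p under 0.05, and IFNB1 is drawn open with dashed lines, since it was not tested in LINC00996 against control, entered the others only through its AP001189.3 counts and has no call here. The IFNL genes lie between -2.09 and -1.57 for LINC00996 and between 1.14 and 1.41 for AP001189.3 against control, while all receptor values lie between -0.96 and 0.28 in these comparisons.

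The other genes of the pathway are given by lists in which IRF1 and SOCS1 each occur more than once. Each count is to be read against all genes tested, of which 11.6% were lower and 10.7% higher with LINC00996, and 8.49% lower and 11.4% higher with AP001189.3, both against control. Of 8 genes for the co-receptor and the kinases and STAT proteins next to the receptors, 3 were lower with LINC00996 than in control and 0 higher (median -0.29). These were STAT2 (-0.50, SE 0.08, adjusted p = 0.00109), which joins IRF9 in the complex downstream of type I and III receptors, JAK2 (-0.85, SE 0.15, adjusted p = 0.00172) and STAT3 (-0.35, SE 0.08, adjusted p = 0.00934), whose call was lost without LINC00996 replicate 2 (0.0662) or control replicate 2 (0.0610). IL10RB, which pairs with IFNLR1, had 82, 41 and 42 counts in control, 22, 27 and 38 with LINC00996, and 47, 40 and 54 with AP001189.3. It missed the threshold in LINC00996 against control (-0.98, SE 0.33, adjusted p = 0.0509). This value was -0.59 (adjusted p = 0.259) without control replicate 1, the library with 82 counts, and it was called without LINC00996 replicate 3 (-1.17, adjusted p = 0.0332) and with all 9 libraries in 1 fit (0.0221). With AP001189.3, STAT2 alone of the 8 was called, and it was higher (0.32, SE 0.05, adjusted p = 2.40e-05), and JAK2 (0.21, adjusted p = 0.0897) passed the threshold without AP001189.3 replicate 1 (0.0497). With all 9 libraries in 1 fit, 5 of the 8 were lower with LINC00996.

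Genes that sense nucleic acid and switch on interferon genes were mostly lower with LINC00996, at 13 of 18 lower and 0 higher than in control (median -0.61). With a library left out or with all 9 in 1 fit, 11 to 15 were lower and 0 or 1 higher. MAVS (0.29, adjusted p = 0.0526) and IRF3 (0.18, adjusted p = 0.378) alone of the 18 had values above control. IRF1, a transcription factor of interferon genes and itself induced by interferon gamma, was lower, at -1.004 (SE 0.09, adjusted p = 2.07e-05), as were the RNA sensors IFIH1, DHX58 and DDX58, at -1.11, -1.31 and -1.23 (adjusted p = 3.90e-05, 5.71e-05 and 5.96e-05). With AP001189.3, 9 of the 18 were higher and 1 lower (median 0.25), a count that fell to 3 higher with all 9 libraries in 1 fit. IRF1 was higher by 0.56 (SE 0.05, adjusted p = 2.54e-08) and DHX58 by 0.34 (SE 0.09, adjusted p = 0.00853), while IFIH1 and DDX58 stood at 0.10 and 0.11 (adjusted p = 0.149 and 0.203). The DHX58 call with AP001189.3 was lost without control replicate 2 (0.0667) or AP001189.3 replicate 3 (0.0819) and with all 9 libraries in 1 fit (0.121). DDX58 was called higher without AP001189.3 replicate 1 (0.17, adjusted p = 0.0315) or control replicate 3 (0.16, adjusted p = 0.0432).

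Of 13 negative regulators of interferon receptors, 4 were lower with LINC00996 and 0 higher (median -0.13). SOCS1, a feedback inhibitor of JAK kinases, was lower, at -0.76 (SE 0.22, adjusted p = 0.0257), as were SOCS3 (-0.43, adjusted p = 0.0332), PIAS1 (-0.46, adjusted p = 0.0196) and USP18 (-0.39, adjusted p = 0.0101), which blocks signalling at IFNAR2. These calls were few and unstable, with 0 left in edgeR without control replicate 1 (5 at an unadjusted p under 0.05), 1 without control replicate 2, and 2 without control replicate 3, LINC00996 replicate 2 or LINC00996 replicate 3. With AP001189.3, 4 were higher and 2 lower (median 0.0011). SOCS1 was higher by 0.89 (SE 0.16, adjusted p = 1.58e-04), SOCS3 by 0.65 (SE 0.06, adjusted p = 2.76e-08) and USP18 by 0.33 (SE 0.06, adjusted p = 2.24e-04), and PIAS1 was lower, at -0.26 (SE 0.07, adjusted p = 0.00508). The PIAS1 call was lost without control replicate 2 (0.0621) and with all 9 libraries in 1 fit (0.184), where 4 regulators were higher and 0 lower.

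Interferon-stimulated genes were lower with LINC00996 in 20 of 22 cases and higher in 0 (median -0.75), and with AP001189.3 higher in 15 of 22 and lower in 0 (median 0.20). IFIT2, an inhibitor of viral translation, was lower, at -1.67 (SE 0.12, adjusted p = 3.11e-06) with LINC00996 and higher by 0.83 (SE 0.06, adjusted p = 1.84e-08) with AP001189.3. OASL, an antiviral protein of the oligoadenylate synthetase family, had -1.54 (adjusted p = 1.08e-06) and 0.18 (adjusted p = 0.0101). IFIT3 had -1.30 (adjusted p = 5.24e-06) and 0.17 (adjusted p = 0.0200), and XAF1, a pro-apoptotic gene, -1.47 (adjusted p = 2.45e-06) and -0.12 (adjusted p = 0.182). With 1 library left out, 16 (without control replicate 2) to 20 (without LINC00996 replicate 1) of 22 were lower with LINC00996, and with all 9 libraries in 1 fit 7 of 22 were higher with AP001189.3. The AP001189.3 calls of OASL and IFIT3 were lost without control replicate 2 (adjusted p = 0.111 and 0.147), AP001189.3 replicate 2 (0.0617 and 0.122) or AP001189.3 replicate 3 (0.0753 and 0.138), and that of IFIT3 also without control replicate 1 (0.0598). Both were also lost with all 9 libraries in 1 fit (0.187 and 0.284).

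Genes mainly induced by interferon gamma were lower with LINC00996 in 10 of 11 tested (median -1.56) and higher with AP001189.3 in 7 of 11 (median 0.43), with 4 higher in the joint fit of 9 libraries. IFNG itself had 0 counts in every library, and which signal moved these genes was not tested. The T-cell attracting chemokines CXCL11 and CXCL10 were lower, at -3.22 (SE 0.22, adjusted p = 2.41e-06) and -3.16 (SE 0.19, adjusted p = 9.52e-07) with LINC00996, and so was IDO1, which degrades tryptophan, at -2.54 (SE 0.13, adjusted p = 4.26e-07). GBP1, a guanylate-binding GTPase, was lower, at -1.56 (SE 0.11, adjusted p = 3.79e-06) and, with AP001189.3, higher by 0.43 (SE 0.06, adjusted p = 5.73e-06). IDO1 was also higher with AP001189.3 (0.27, SE 0.08, adjusted p = 0.0317), a call lost without control replicate 1 (0.104), control replicate 2 (0.136), AP001189.3 replicate 2 (0.160) or AP001189.3 replicate 3 (0.0522) and in the joint fit (0.185), while CXCL10 and CXCL11 stood at 0.47 and 0.25 (adjusted p = 0.192 and 0.299). Without AP001189.3 replicate 1, CXCL10 and CXCL11 were called higher, at 0.66 and 0.43 (adjusted p = 1.53e-06 and 0.00114).

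In LINC00996 against AP001189.3, 21 of 22 interferon-stimulated genes (median -1.03) and 11 of 11 genes mainly induced by interferon gamma (median -2.09) were lower. So were 14 of 18 induction genes (median -1.07), 4 of 8 signalling genes (median -0.32) and 4 of 13 negative regulators (median -0.19). In these lists 0 genes were higher, beside 12.1% lower and 9.38% higher over all genes. IL10RB was among the signalling genes called (-0.80, SE 0.26, adjusted p = 0.0483), but not with all 9 libraries in 1 fit (0.0629), without LINC00996 replicate 1 (0.0724) or 2 (0.106), or without AP001189.3 replicate 1 (0.121), 2 (0.0942) or 3 (0.180). Without LINC00996 replicate 1, 5 negative regulators were lower and 2 higher.

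**Figure D5:**
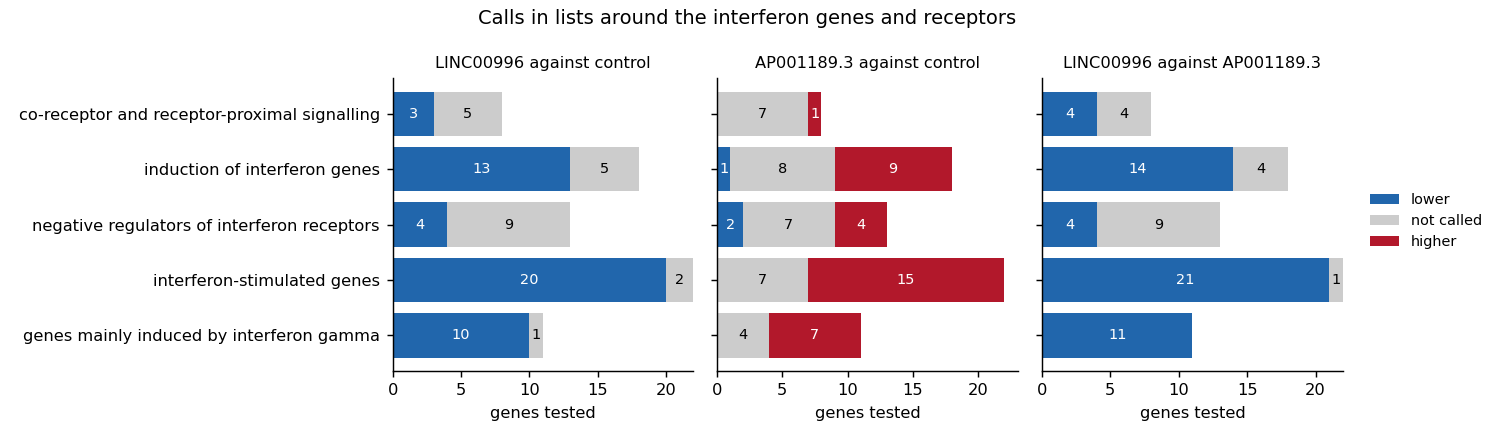
Number of genes tested in 5 lists that were called lower (blue), called higher (red) or not called (grey) in each comparison, at an adjusted p under 0.05. With LINC00996 the interferon-stimulated list has 20 of 22 genes lower than in control, and with AP001189.3 it has 15 of 22 higher.

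Neighbouring genes were read to see whether the members moved with their chromosomal surroundings. Near the type I genes on 9p21, 5 of 8 listed genes were tested against control, with 1 lower and 1 higher in each comparison, and the median was -0.03 for LINC00996 and -0.14 for AP001189.3. MLLT3, a chromatin reader, was lower, at -0.50 (adjusted p = 0.0109) and -0.22 (adjusted p = 0.0244). KLHL9 stood at -0.03 and -0.15 (adjusted p = 0.870 and 0.103), and FOCAD at 0.30 and -0.14 (adjusted p = 0.0707 and 0.172). The first FOCAD value passed the threshold without LINC00996 replicate 1 (0.39, adjusted p = 2.35e-04) and with all 9 libraries in 1 fit (0.0305). CDKN2A and CDKN2B, cell-cycle inhibitors known to be deleted in A549, had 0 counts in every library. The list for 21q22 includes the members IFNAR1, IFNAR2 and IFNGR2, and 3 of its 9 genes tested were lower in each comparison with control. Over all genes tested, 11.6% were lower and 10.7% higher with LINC00996, and 8.49% lower and 11.4% higher with AP001189.3. The genes called on 21q22 were the members IFNGR2 and IFNAR1 and, as the only neighbour, SON, a splicing factor (-0.32, adjusted p = 0.0288, and -0.19, adjusted p = 0.00964). The counts of both lists depended on single libraries and on the fit, while IFNGR2 was called with LINC00996 in each of the 14 alternatives. With all 9 libraries in 1 fit, 0 of 5 genes on 9p21 (1 at an unadjusted p under 0.05) and 0 of 9 on 21q22 (3 at an unadjusted p under 0.05) were called by edgeR in AP001189.3 against control, with adjusted p of 0.264 for MLLT3 and 0.186 for SON. Without control replicate 3, 0 of 6 genes on 9p21 were called in either comparison by edgeR (2 and 3 at an unadjusted p under 0.05), and without any 1 control library or LINC00996 replicate 2, 1 of 9 on 21q22 was called with LINC00996.

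Across the 9 libraries, log2 CPM of IFNL1, the interferon gene with the most counts (1416), was most like that of HSH2D (Pearson r = 0.995), JADE2 (0.994) and SECTM1 (0.993) out of 14627 genes. Among the members, IFNL3 had r = 0.963 with IFNL1, IFNLR1 0.956, IFNL2 0.931, IFNB1 0.899 and IFNE -0.42. The pattern of IFNGR1, the receptor gene with the most counts (61570), was most like those of OSMR (0.995), RARRES1 (0.995) and PTGS2 (0.995), and r with IFNGR2 was 0.966. The points share plasmid group and library, so these values describe the 3 groups as much as single libraries.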

How the data were processed

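RNA-seq was performed by the authors on poly(A)-selected RNA of A549 cells with 150 bp paired reads. The deposited table holds raw counts per gene, and the deposited FPKM values are those counts divided by gene length and by the sum of the library, within a factor of 0.961 to 1.02. The submitters' processing notes name HISAT2 2.0.5, featureCounts 1.5.0-p3, DESeq2 1.20.0 and edgeR 3.22.5. Strand and multi-mapping settings are not given in the sources used here. Gene coordinates in the table equal those of GENCODE 29 (GRCh38) for all 58735 genes. Libraries were grouped by their titles. The treatment labels of the control libraries carry different plasmid numbers, while the methods name a single control plasmid; they were read as 3 replicates.

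Each comparison used its 6 libraries in edgeR 4.0.16 (R 4.3.3) with filterByExpr, TMM and the robust quasi-likelihood test, with Benjamini-Hochberg adjustment over all genes tested and a threshold of 0.05. The standard error is the log2 fold change over the square root of F. CPM used TMM factors over 9 libraries, log2 CPM a prior count of 2, and FPKM was used for levels between genes only. The floor was 3 counts per library, which covers counting error only. Alternatives were DESeq2 1.42.0, RLE factors, library size alone, no filter, at least 10 counts in each library, a joint fit of 9 libraries, the replicate number as a block, IFNL2 and IFNL3 summed, and leaving out each library. The last and the joint fit were applied to the gene lists after the data had been seen. The fits were tested on simulated counts. Named genes were the members, up to 4 per list with the smallest adjusted p in LINC00996 against control, genes overlapping a member, and the 3 genes most like IFNL1 and IFNGR1. IFNG, IFNL4 and IFNA1 were named from the list of other interferon genes. MAVS, IRF3 and KLHL9 were named as listed genes whose values differed from those of the genes named beside them. The members and lists were chosen with earlier results of these data known. Motif matches were counted on both strands of RefSeq windows.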

Additional observations from a re-analysis of the deposited data

Results flagged for a closer look

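The IFNL genes differed in direction between the plasmids: each was lower with LINC00996 and higher with AP001189.3 than with the control plasmid, and the direct comparison of LINC00996 with AP001189.3 was called for each. The log2 fold change in that comparison was -3.23 for IFNL1, -3.02 for IFNL2 and -2.91 for IFNL3 (edgeR adjusted p = 6.23e-06, 1.92e-06 and 1.25e-05), with all 3 LINC00996 libraries below all 3 AP001189.3 libraries.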

How the results depend on the processing

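IFNL1, IFNL2 and IFNL3 kept their direction and their calls in every alternative in which they were tested, in all 3 comparisons, and so did IFNGR1 and IFNGR2 in LINC00996 against control and against AP001189.3. The number of genes called with 1 library left out ranged from 1925 (without control replicate 2) to 5481 (without LINC00996 replicate 1) in LINC00996 against control, from 1914 (without AP001189.3 replicate 2) to 3598 (without control replicate 1) in AP001189.3 against control, and from 1840 (without AP001189.3 replicate 1) to 6828 (without LINC00996 replicate 1) in LINC00996 against AP001189.3. With all 9 libraries in 1 fit, AP001189.3 against control had 435 genes called in place of 3180, and 3 members in place of 6 with IFNB1 left out of both counts; the cause was not tested. Among members that were not called, the sign changed for IFNE in LINC00996 against control (0.0259 with library size alone, -0.123 to 0.0881 with a library left out), for IFNAR2 in AP001189.3 against control (-0.0910 to 0.279 with a library left out) and for IFNAR1 in LINC00996 against AP001189.3 (-0.273 to 0.0328 with a library left out). Deviations of same-numbered libraries from their group means correlated at -0.01 to 0.20, not over 0.1 for every pair, so the numbers were not read as pairs. In 6 of 9 cases a library correlated best with its own number, among them all 3 of LINC00996 with AP001189.3. With the replicate block, 4500, 3466 and 3772 genes were called in the 3 comparisons, and 7, 6 and 7 members other than IFNB1. IFNLR1 in LINC00996 against control (-0.50, adjusted p = 0.0403) and IFNAR2 in LINC00996 against AP001189.3 (-0.56, adjusted p = 0.0346) passed the threshold with it. Low counts limit IFNB1 most.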
